A study of Mus musculus with 9 samples.

Results

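The Siglec genes were followed in 3 populations of mouse bone marrow Ly6Chi CD115+ cells. Siglecs are surface lectins that bind sialic acid, the sugar that ends many glycan chains of vertebrate cells. Many members carry inhibitory motifs in the cytoplasmic tail that recruit the phosphatase SHP-1. Others lack such motifs, and some of these pair through the membrane with the activating adaptor DAP12. In the myeloid lineage each receptor has its own cell distribution, so that Siglec-H is widely used to mark plasmacytoid DCs and their precursors, and sialoadhesin, the product of *Siglec1*, to mark resident macrophages. The 6 genes taken here, *Siglech*, *Cd33*, *Cd22*, *Siglecg*, *Siglece*, and *Siglec1*, were set by name, among 19937 genes measured. They were chosen with earlier results of these data known. Each was read from the 1 probe set that the platform annotation gives to it alone.

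R3 cells were sorted as Flt3+CD11c+, R2 cells as Flt3+CD11c-, and R1 cells as Flt3-CD11c-, with 3 arrays per population. All came from unmanipulated C57Bl/6 mice aged 8 weeks and were negative for lineage markers, cKit, and surface MHCII and positive for SIRPα. In the study's naming R3 are pre-DCs and R1 and R2 are monocytes. Each of 3 dates in the labels holds 1 array of each population and gives the replicate number used here. Neither the labels nor the methods say whether an array holds 1 mouse or a pool, and what the dates mark is not stated. The p-values therefore cover the spread among arrays of a population, and that spread may be technical.

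Transcripts of the genes behind the sort were read first. *Itgax*, which encodes CD11c, was 30.7-fold higher in R3 than in R2, and *Flt3* was 8.75-fold higher. *Csf1r*, which encodes CD115, had mean log2 intensities of 10.74 ± 0.14 in R3, 10.98 ± 0.05 in R2, and 11.25 ± 0.08 in R1 (SD of 3 arrays each). *Sirpa*, which encodes SIRPα, averaged 10.69 ± 0.14 in R3, 11.38 ± 0.01 in R2, and 11.69 ± 0.03 in R1, without overlap. Between R2 and R1, which the sort separated by Flt3 protein, *Flt3* transcript ranged from 7.70 to 8.02 in R2 and from 6.74 to 7.78 in R1, so that the arrays overlapped (limma, adjusted p = 0.281). *H2-Ab1*, an MHCII gene, read 10.28, 11.34, and 11.37 in R3, 7.66, 9.63, and 9.18 in R2, and 7.63, 9.35, and 8.03 in R1, although all cells were sorted without surface MHCII. R3 was above both other populations without overlap, by 2.17 on the log2 scale over R2 (adjusted p = 0.048) and 2.66 over R1 (adjusted p = 0.0144). Array medians lay between 58.0 and 64.7 intensity units. In the sorted RNA, fewer cells that carry a transcript and less transcript per cell cannot be told apart.

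The stretches before the transcription starts are printed for the 3 genes with the largest increase in R3 and for *Siglece*, the gene with the largest decrease, because these are the members that the comparisons turn on. They are the 250 bases before the start in RefSeq annotation of GRCm38.p6, and 5 of the 6 members had such a window. Capitals mark 2 motifs searched on both strands. GGAAGT, which on the opposite strand reads ACTTCC, is a core bound by Ets factors such as PU.1, and CACCTG, which on the opposite strand reads CAGGTG, is an E-box of the kind bound by E proteins such as TCF4.
Siglech, chr7:55767934-55768183, plus strand: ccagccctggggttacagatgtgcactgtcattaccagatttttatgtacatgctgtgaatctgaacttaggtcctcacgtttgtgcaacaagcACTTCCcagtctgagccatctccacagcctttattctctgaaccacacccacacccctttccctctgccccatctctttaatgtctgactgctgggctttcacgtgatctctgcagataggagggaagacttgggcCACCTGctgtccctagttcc
Cd33, chr7:43533172-43533421, minus strand: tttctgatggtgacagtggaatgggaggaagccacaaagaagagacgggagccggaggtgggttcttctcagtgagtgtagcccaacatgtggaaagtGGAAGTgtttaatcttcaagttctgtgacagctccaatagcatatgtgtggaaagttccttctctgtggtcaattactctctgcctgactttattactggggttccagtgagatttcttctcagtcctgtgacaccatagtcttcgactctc
Cd22, chr7:30879029-30879278, minus strand: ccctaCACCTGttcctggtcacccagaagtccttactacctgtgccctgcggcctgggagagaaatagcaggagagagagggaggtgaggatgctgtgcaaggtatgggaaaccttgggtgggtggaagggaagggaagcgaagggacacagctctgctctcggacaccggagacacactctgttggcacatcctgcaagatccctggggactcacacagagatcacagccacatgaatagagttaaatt
Siglece, chr7:43660162-43660411, minus strand: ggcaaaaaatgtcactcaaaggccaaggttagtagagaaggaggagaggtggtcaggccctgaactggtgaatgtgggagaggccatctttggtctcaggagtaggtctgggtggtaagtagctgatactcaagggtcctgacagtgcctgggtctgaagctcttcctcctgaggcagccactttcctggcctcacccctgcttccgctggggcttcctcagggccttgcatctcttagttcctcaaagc

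GGAAGT occurred before *Siglech*, 156 bases ahead of the start and on the opposite strand, and before *Cd33*, 152 bases ahead. CACCTG occurred before *Siglech*, 20 bases ahead of the start, and before *Cd22*, 245 bases ahead. Neither motif was in the window of *Siglece* or in either of the 2 windows of *Siglecg*, and no match of one motif overlapped the other. Of 32851 mouse windows of the same length, 19.7% held GGAAGT and 17.2% held CACCTG, so that 2 of 5 members with each motif is a description only. Between the first windows of 2 different Siglec genes, the longest stretch shared on the same strand had 16 bases. It belonged to *Cd33* and *Siglecf*, which encodes the eosinophil receptor Siglec-F. Further windows of a gene, opposite strands, *Siglec1*, and *Siglec15* were not compared. The shared stretch carries the GGAAGT match of both genes and was found in the windows of these 2 genes alone.
Cd33 and Siglecf, shared stretch: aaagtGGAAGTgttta

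It starts 157 bases before *Cd33* and 27 bases before *Siglecf*, and of the 2 genes only *Cd33* was called between the populations. All values below are log2 intensities on the deposited scale, a fold change is the first population over the second, and a gene was called at an adjusted p under 0.05 in limma over all 19937 genes. A level is compared only between populations for the same gene, since probe sets differ in brightness.

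R3 stood apart from R2 in nearly the whole set. Of the 6 members, 5 were called between R3 and R2, against 9.55% of all genes. *Siglech*, *Cd33*, *Cd22*, and *Siglecg* were higher in R3 (4 of 6, against 4.85% of all genes higher), and *Siglece* was lower (1 of 6, against 4.69% lower). *Siglec1* was not called (adjusted p = 0.0592). All 6 had R3 arrays outside the range of the R2 arrays, which 24.8% of all genes had. The median size of the log2 difference was 1.87 over the members and 0.098 over all genes. Since the members were chosen with earlier results of these data known, the contrasts with all genes are a description only.

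Between R3 and R1 all 6 members were called, against 13.5% of all genes. The same 4 genes were higher (6.49% of all genes) and *Siglece* and *Siglec1* were lower (7.02%). Again the arrays of all 6 members did not overlap, against 24.5% of all genes. Both comparisons use the same R3 arrays and the populations share 1 estimate of spread, so the second is not independent of the first.

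R2 and R1 were closer to each other. None of the 6 members was called between R2 and R1 with limma, against 0.391% of all genes, and 3 had an unadjusted p under 0.05. At that share a count of 0 among 6 genes is a description only. The median size of the log2 difference between R2 and R1 was 0.34 over the members and 0.087 over all genes. Of the 6, 3 had arrays that did not overlap (*Cd22*, *Cd33*, and *Siglece*), against 13.4% of all genes. The methods' unpaired t-test after Benjamini-Hochberg adjustment called 0 members as well, and limma with array weights called *Cd22* (adjusted p = 0.0301).

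**Figure D1:**
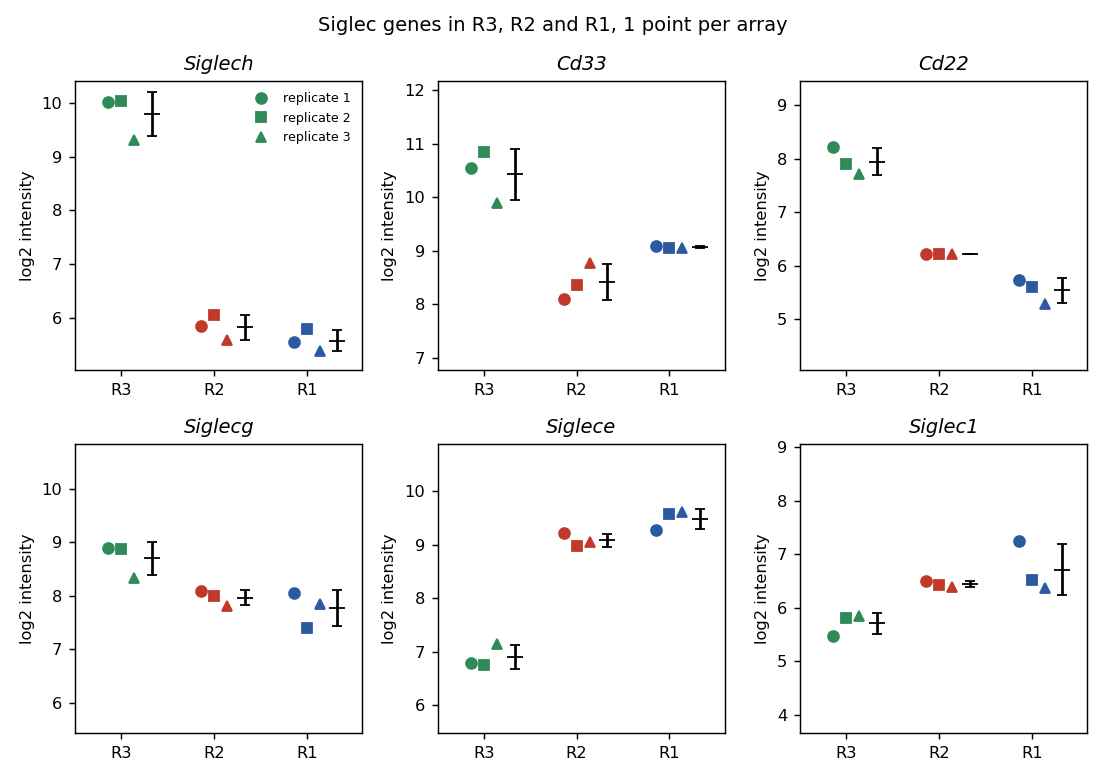
Log2 intensity (vertical axis, each panel spanning the same number of log2 units) of the 6 Siglec genes in R3, R2, and R1, with 1 symbol per array, the shape giving the replicate number, and a bar for the mean ± SD of 3 arrays. The R3 arrays lie above all others for *Siglech*, *Cd33*, *Cd22*, and *Siglecg* and below all others for *Siglece* and *Siglec1*.

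*Siglech* gave the largest difference among the members. It encodes Siglec-H, a receptor without inhibitory motif that signals through DAP12. Its log2 intensity was 10.03, 10.05, and 9.32 in R3, against 5.84, 6.04, and 5.57 in R2 and 5.55, 5.78, and 5.38 in R1. Every R3 array was far above every other array, while R2 and R1 overlapped. The increase was 15.8-fold over R2 (log2 3.98, SE 0.21, adjusted p = 4.38e-06) and 18.8-fold over R1 (log2 4.23, SE 0.21, adjusted p = 2.18e-06). With 32 added to each intensity before the logarithm the increases were 10.4-fold over R2 and 11.6-fold over R1, both called. R2 exceeded R1 by 0.25 (95% interval -0.22 to 0.71, adjusted p = 0.76).

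*Cd33* had the second largest increase over R2. Its product is a receptor of myeloid cells. R3 arrays read 10.55, 10.84, and 9.90, R2 arrays 8.10, 8.36, and 8.78, and R1 arrays 9.09, 9.06, and 9.05. The 3 populations formed separate ranges, with R3 highest, R1 next, and R2 lowest. R3 was 4.04-fold above R2 (log2 2.01, SE 0.23, adjusted p = 0.000522) and 2.57-fold above R1 (log2 1.36, SE 0.23, adjusted p = 0.00404). R2 was 0.65 below R1 (log2 fold change -0.65, 95% interval -1.18 to -0.13), a difference that was not called over all genes (adjusted p = 0.335). The difference of R3 from R1 was not called when the arrays of replicate 1 (adjusted p = 0.0766) or replicate 2 (adjusted p = 0.101) were left out. It was also not called by the methods' unpaired t-test (adjusted p = 0.111).

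*Cd22* rose in R3 as well. Its product is the inhibitory coreceptor of the B cell receptor. The log2 intensity was 8.21, 7.91, and 7.71 in R3, 6.21, 6.22, and 6.22 in R2, and 5.73, 5.60, and 5.29 in R1. The ranges did not overlap and descended from R3 to R2 to R1. R3 was 3.31-fold above R2 (log2 1.72, SE 0.14, adjusted p = 6.63e-05) and 5.28-fold above R1 (log2 2.40, SE 0.14, adjusted p = 6.43e-06). R2 exceeded R1 by 0.68 (95% interval 0.35 to 1.00, adjusted p = 0.0986).

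*Siglecg* moved less. It encodes Siglec-G, an inhibitory receptor of B-1 cells that also binds CD24. R3 arrays read 8.88, 8.87, and 8.34, against 8.08, 7.99, and 7.81 in R2 and 8.05, 7.39, and 7.85 in R1. The lowest R3 array was only slightly above the highest array of the other populations, and R2 and R1 overlapped. The increase was 1.67-fold over R2 (log2 0.74, SE 0.19, adjusted p = 0.0426) and 1.91-fold over R1 (log2 0.93, SE 0.19, adjusted p = 0.0108). The call against R2 was lost in 11 of 22 alternatives (adjusted p up to 0.208), among them leaving out R3 replicate 1 or 2, any R2 array, R1 replicate 3, or any label date. The call against R1 was lost without replicate 1 (adjusted p = 0.0687) or replicate 2 (adjusted p = 0.17), and under the methods' unpaired t-test (adjusted p = 0.203).

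*Siglece* was the member that fell most. It encodes Siglec-E, an inhibitory receptor of mouse neutrophils, monocytes, and macrophages. Its log2 intensity was 6.80, 6.76, and 7.16 in R3, 9.22, 8.98, and 9.05 in R2, and 9.27, 9.57, and 9.62 in R1. The ranges ascended from R3 to R2 to R1 without overlap, with R2 and R1 close. R3 was 4.52-fold lower than R2 (log2 -2.18, SE 0.13, adjusted p = 1.12e-05) and 5.99-fold lower than R1 (log2 -2.58, SE 0.13, adjusted p = 2.9e-06). The log2 difference of R2 from R1 was -0.41 (95% interval -0.70 to -0.11, adjusted p = 0.286).

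*Siglec1* encodes sialoadhesin, a long adhesion receptor of macrophages that is induced by type I interferon. R3 arrays read 5.48, 5.81, and 5.84, R2 arrays 6.50, 6.42, and 6.40, and R1 arrays 7.25, 6.52, and 6.37. R3 was lowest throughout, and R1 replicate 1 stood above the other R1 arrays. The log2 difference was -1.004 from R1 (SE 0.20, adjusted p = 0.0104) and -0.73 from R2 (SE 0.20, 95% interval -1.19 to -0.27, adjusted p = 0.0592). R2 and R1 overlapped, with a log2 difference of -0.27 (95% interval -0.74 to 0.19, adjusted p = 0.726) that was -0.0055 without R1 replicate 1. The difference of R3 from R2 was called in 7 of 22 alternatives, with an adjusted p of 0.00332 without R1 replicate 1. That of R3 from R1 was lost in 3 of 22, among them leaving out replicate 2 (adjusted p = 0.105).

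**Figure D2:**
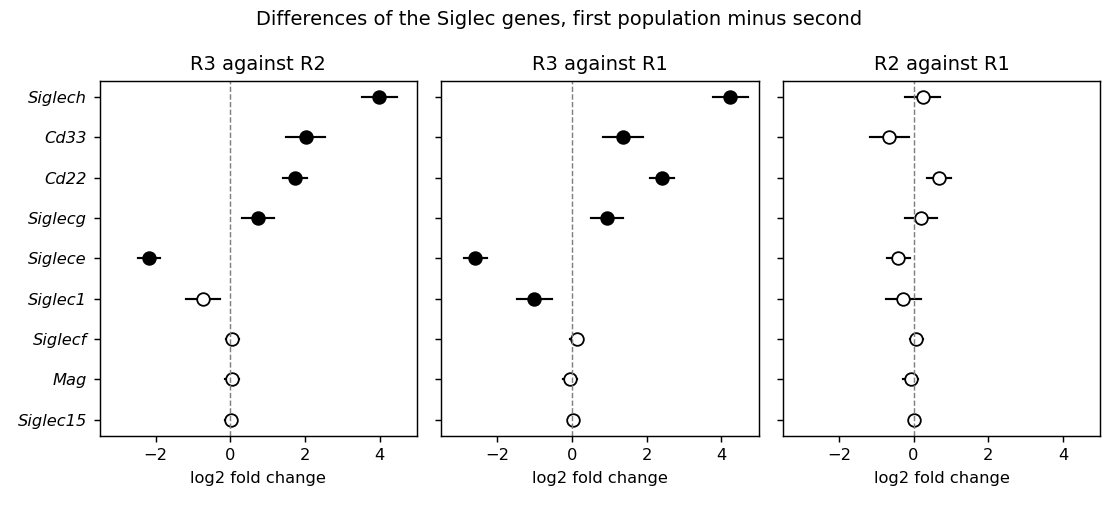
Log2 fold change (horizontal axis) of the 6 members and 3 other Siglec genes in each comparison, first population minus second, with 95% intervals from limma and filled points for an adjusted p under 0.05. The 3 other genes lie between -0.08 and 0.13 in all panels, and no point is filled between R2 and R1.

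One array of R3 was less extreme than the others. Replicate 3 of R3 was the R3 array nearest to the R2 mean for 6 of 6 members. Among the 1903 genes called between R3 and R2 the same array was nearest for 41.5%, replicate 2 for 31.1%, and replicate 1 for 27.4%. Without this array 5 members were called against R2 and 6 against R1. *Siglech* then exceeded R2 by 4.22 on the log2 scale. The R3 arrays also differed in neutrophil transcripts, as given below.

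The Siglec genes outside the set were flat. *Siglecf* averaged 6.49 ± 0.13 in R3, 6.44 ± 0.07 in R2, and 6.36 ± 0.04 in R1 (SD of 3 arrays each) and was not called in any comparison (adjusted p = 0.833 for R3 against R2, 0.402 for R3 against R1, and 0.821 for R2 against R1). *Mag*, which encodes a myelin glycoprotein, averaged 4.92 ± 0.15 in R3, 4.88 in R2, where the 3 deposited values were identical, and 4.96 ± 0.07 in R1. *Siglec15*, an osteoclast receptor gene, averaged 6.80 ± 0.05 in R3, 6.79 ± 0.05 in R2, and 6.78 ± 0.01 in R1. Intervals of the R3 to R2 difference were -0.13 to 0.23 for *Siglecf*, -0.16 to 0.23 for *Mag*, and -0.13 to 0.15 for *Siglec15*.

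Of the members, 5 lie on chromosome 7 and *Siglec1* lies on chromosome 2. In RefSeq order *Siglecf*, *Siglecg*, *Cd33*, and *Siglece* belong to 1 stretch of 20 genes, of which 12 of the 16 other genes were measured. None of these 12 was higher in R3 than in R2 or R1. Of all genes 4.85% were higher against R2 and 6.49% against R1, so that 0 of 12 is a description only. *Nkg7*, which encodes a cytotoxic granule protein, was lower than in R2 (log2 -2.16, adjusted p = 0.00302) and R1, and *Etfb*, a mitochondrial electron carrier gene, was lower than in R2 (log2 -0.53, adjusted p = 0.0277). The 4 genes between *Cd33*, which rose, and *Siglece*, which fell, are *Zfp658*, *Zfp719*, *Zfp819*, and *Ceacam18*, and none was called. *Cd22* and *Mag* are separated only by 1 noncoding gene, and *Mag* was not called.

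The adaptors of the family did not follow *Siglech*. *Tyrobp*, which encodes DAP12, averaged 12.81 ± 0.10 in R3, 12.94 ± 0.02 in R2, and 12.99 ± 0.05 in R1 (SD of 3 arrays each, R3 minus R2 -0.13, adjusted p = 0.401). *Hcst*, which encodes the related adaptor DAP10, read 9.04, 8.69, and 8.58 in R3, 9.92, 9.91, and 9.67 in R2, and 10.12, 10.27, and 10.07 in R1. It fell in R3 without overlap, by 1.06 on the log2 scale against R2 (adjusted p = 0.000592) and by 1.38 against R1 (adjusted p = 9.3e-05).

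Of 10 measured genes linked to signalling at Siglec tails, 2 were higher and 1 was lower in R3 against R2. The 10 were phosphatase and kinase genes together with *Cbl* and *Socs3*, and their median log2 difference was 0.10. Over all genes 4.85% were higher and 4.69% lower. *Fyn*, a Src family kinase gene, was 4.69-fold above R2 (log2 2.23, adjusted p = 1.53e-05), with 9.59, 9.96, and 9.75 in R3 and 7.37, 7.54, and 7.69 in R2. *Fgr*, another Src family kinase gene, fell by 1.05 on the log2 scale (adjusted p = 0.00238). *Inpp5d*, which encodes the lipid phosphatase SHIP1, rose by 0.52 (adjusted p = 0.00452). *Ptpn6*, which encodes SHP-1, differed by 0.22 (adjusted p = 0.114), *Ptpn11*, which encodes SHP-2, by 0.22 (adjusted p = 0.181), and *Syk* by -0.09 (adjusted p = 0.763). The count of 3 dropped to 1 when the arrays of replicate 2 were left out.

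Among 8 genes of DAP12 and B cell receptor signalling, 2 were higher and 2 were lower in R3 against R2. The shares over all genes were 4.85% and 4.69%. *Blnk*, an adaptor of the B cell receptor that also serves DAP12 receptors, read 7.07, 6.99, and 6.31 in R3, against 4.88, 5.10, and 5.20 in R2 and 4.61, 4.81, and 4.98 in R1. R3 did not overlap the rest, and the increase over R2 was 3.32-fold (log2 1.73, adjusted p = 0.000438). *Pik3ap1*, which encodes the PI3K adaptor BCAP, was 2.90-fold above R2 (adjusted p = 1.41e-05). *Sh3bp2* (log2 -0.57, adjusted p = 0.0138) and *Card9* (log2 -0.45, adjusted p = 0.0135), which encode a Syk adaptor and an adaptor downstream of it, were lower. The count of 4 was 2 without R2 replicate 3, replicate 1, or replicate 2.

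The enzymes that make the ligands moved in part. Of 20 sialyltransferase genes, 5 were higher and 0 lower in R3 against R2, and the median log2 difference was 0.02. Over all genes 4.85% were higher and 4.69% lower. *St8sia1*, which encodes GD3 synthase, a ganglioside enzyme, read 8.84, 8.59, and 8.15 in R3, against 5.29, 5.34, and 5.85 in R2 and 5.64, 5.30, and 5.42 in R1. R3 lay far above both populations, 8.18-fold over R2 (log2 3.03, SE 0.20, adjusted p = 1.64e-05) and 8.41-fold over R1. The other 4 belong to the ST3GAL family, *St3gal1* (log2 0.84), *St3gal5* (0.81), *St3gal4* (0.59), and *St3gal2* (0.36). Against R1, 2 of the 20 were higher and 1 was lower, where 6.49% of all genes were higher and 7.02% lower. *St6gal1*, whose product makes the linkage that CD22 prefers, was lower in R3 than in R1 (log2 -0.98, adjusted p = 0.00474) and differed by -0.50 from R2. The count of 5 was 2 without replicate 2 or replicate 3.

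Of 10 genes for the removal and turnover of sialic acid, 0 were higher and 3 were lower in R3 against both R2 and R1, with median log2 differences of -0.13 and -0.25. Over all genes 4.69% were lower against R2 and 7.02% against R1. *Neu1*, the lysosomal sialidase gene, fell by 0.87 against R2 (adjusted p = 0.013), *Npl*, which encodes the lyase that splits free sialic acid, by 0.81 (adjusted p = 0.00537), and *Renbp*, which encodes a sugar epimerase, by 0.66 (adjusted p = 0.0157). The count against R2 was 0 when any 1 label date was left out and 1 without R2 replicate 3. Of 6 genes of sialic acid synthesis none was called between R3 and R2 with limma, against 9.55% of all genes. In that fit 4 had an unadjusted p under 0.05. The methods' t-test called 0, and the fit with the label date as a block called 1. *Slc35a1*, which encodes the transporter of activated sialic acid into the Golgi, was higher in R3 than in R1 (log2 0.43, adjusted p = 0.0343), and the count of this list was 0 in 12 of 22 alternatives.

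**Figure D3:**
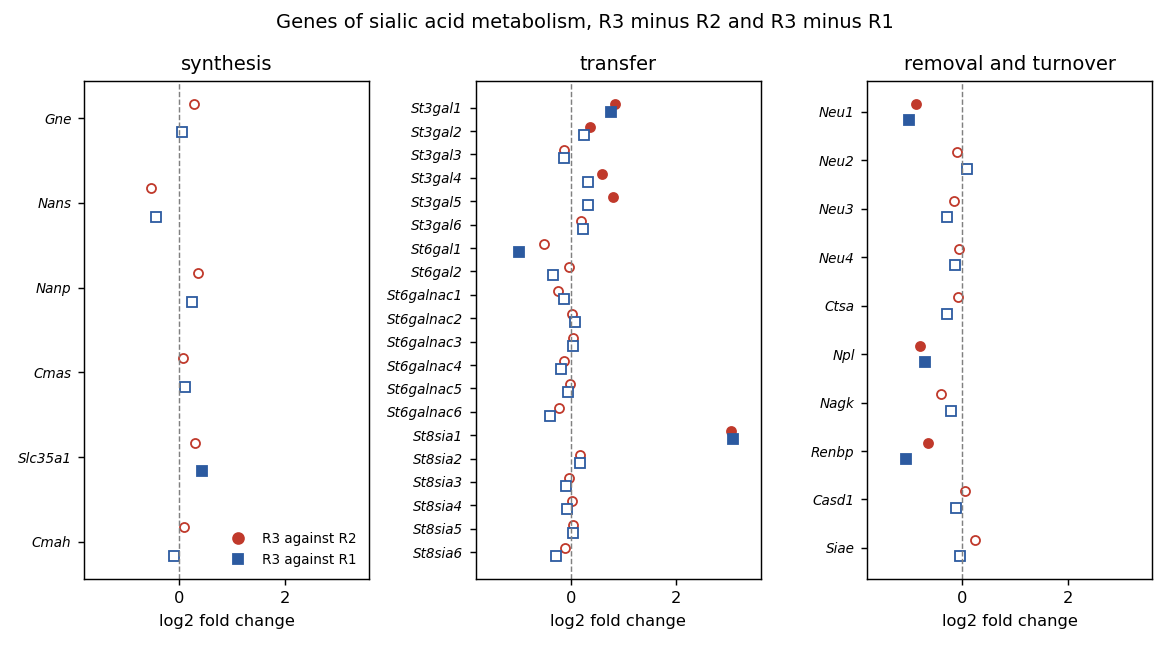
Log2 fold change (horizontal axis) of the genes of sialic acid synthesis, transfer, and removal, R3 minus R2 (circles) and R3 minus R1 (squares), filled where the adjusted p was under 0.05. *St8sia1* is the point farthest to the right, and the filled points of the removal genes are all below 0.

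Markers of the cell types in which each Siglec is best known were read beside the members, and their part in the results was not tested. The sort had excluded, among others, cells positive for CD3ε, Ly6G, NK1.1, and CD45RA, which marks B cells and plasmacytoid DCs. Plasmacytoid DC markers were mostly higher in R3, where *Siglech* was highest. Of 14 listed, 12 were measured, and of these 9 rose and 0 fell in R3 against R2, where 4.85% of all genes were higher. The largest differences of the listed markers were in *Spib* (log2 5.22), *Cd7* (4.27), and *Atp1b1* (3.04). Their summed intensity ranged from 17187 to 18751 in R3, from 2983 to 3204 in R2, and from 2931 to 3149 in R1. *Ccr9*, *Pacsin1*, and *Irf7* were not called against R2. R3 replicate 3, the lowest R3 array for *Siglech*, had the lowest mean log2 level of these markers, 8.96 against 9.29 and 9.13 in the other R3 arrays. *Zbtb46*, which the study uses as a gene of the DC lineage, was also highest in R3. It averaged 6.84 ± 0.52 in R3, 5.90 ± 0.10 in R2, and 5.86 ± 0.14 in R1 (SD of 3 arrays each). By flow cytometry the study aligned R3 with pre-DC subsets both positive and negative for Siglec-H. Its discussion, however, lists R3 cells as negative for Siglec-H.

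Few B cell markers were called beside *Cd22* and *Siglecg*. Of 12 measured, 2 rose and 0 fell in R3 against R2, where 4.85% of all genes were higher and 4.69% lower. The 2 were *Cd72* (log2 0.52, adjusted p = 0.0084) and *Fcer2a* (log2 0.47, adjusted p = 0.0459). The count of 2 was 0 without replicate 1 or replicate 2 and 1 without replicate 3 or without any single R3 or R2 array or R1 replicate 1. The sums ranged from 905 to 950 in R3, from 693 to 785 in R2, and from 709 to 767 in R1. *Vpreb1* averaged 7.65 in R3 and 6.71 in R2, and *Igll1* averaged 6.63 and 6.11. For both genes the R3 and R2 arrays did not overlap, and neither gene was called. In limma 4 of the 12 had an unadjusted p under 0.05 for R3 against R2. The defining genes *Cd79a*, *Ms4a1*, *Pax5*, and *Ebf1* were not called, with mean log2 levels in R3 of 4.34, 3.64, 5.71, and 3.77.

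Resident macrophage markers were read for *Siglec1*. Of 12, 1 was higher and 1 lower in R3 than in R2, where 4.85% of all genes were higher and 4.69% lower. *Adgre1*, which encodes F4/80, fell by 1.99 on the log2 scale (adjusted p = 7.99e-05), and *Cd163*, which encodes the haemoglobin scavenger receptor, rose by 1.42 (adjusted p = 0.000184). *Axl*, a receptor kinase gene, was lower than in R1 (log2 -0.87, adjusted p = 0.00134). The sums ranged from 716 to 750 in R3, from 1025 to 1077 in R2, and from 1426 to 1462 in R1. *Adgre1* alone gave 126 to 209 in R3, 582 to 626 in R2, and 967 to 1053 in R1. Without it the sums of the 11 other genes were 541 to 613 in R3, 429 to 451 in R2, and 410 to 485 in R1, so that R3 was highest. The median log2 difference of the 12 genes was 0.04 for R3 against R2 and -0.0032 for R3 against R1. *Vcam1*, *C1qa*, *Cd5l*, and *Timd4*, with mean log2 levels of 4.34, 5.82, 4.21, and 5.50 in R3, were not called.

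Genes induced by interferon were mostly lower in R3, where *Siglec1* was lowest. Of 23 listed, 20 were measured, and of these 13 were lower and 1 higher in R3 against R2, 14 were lower and 1 higher against R1, and 2 were lower in R2 than in R1. Over all genes 4.69% were lower in R3 against R2, 7.02% were lower against R1, and 0.391% were called between R2 and R1. The median log2 difference of the list was -0.68 for R3 against R2 and -1.26 for R3 against R1. The medians of all genes were -0.007 and -0.02. *Ifit3* (log2 -2.57), *Rtp4* (-2.44), *Ifit1* (-2.39), *Oasl2* (-2.08), and *Oas1a* (-1.91) fell most against R1. *Bst2* rose against R1 by 1.97, and it and *Irf7* stand in the plasmacytoid DC list too. The summed intensity of the list was 7171 to 8320 in R3, above the 5044 to 5766 of R2, and 6715 to 8992 in R1. *Bst2* alone gave 4307 to 5253 in R3, 979 to 1078 in R2, and 1158 to 1222 in R1. The mean log2 level of the list was 7.31, 7.03, and 7.28 in R3, 7.88, 7.69, and 7.75 in R2, and 8.51, 8.26, and 8.12 in R1. R1 replicate 1 was the highest array, as it was for *Siglec1*. Within R2, replicate 1 was also highest in both. Within R3, replicate 1 had the highest list mean but the lowest *Siglec1*, 5.48 against 5.81 and 5.84. Whether interferon had a part in the level of *Siglec1* was not tested. Between R3 and R2 the count of 14 called genes was 5 or 6 when 1 label date was left out and 9 without R3 replicate 2, R2 replicate 1, or R2 replicate 3.

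**Figure D4:**
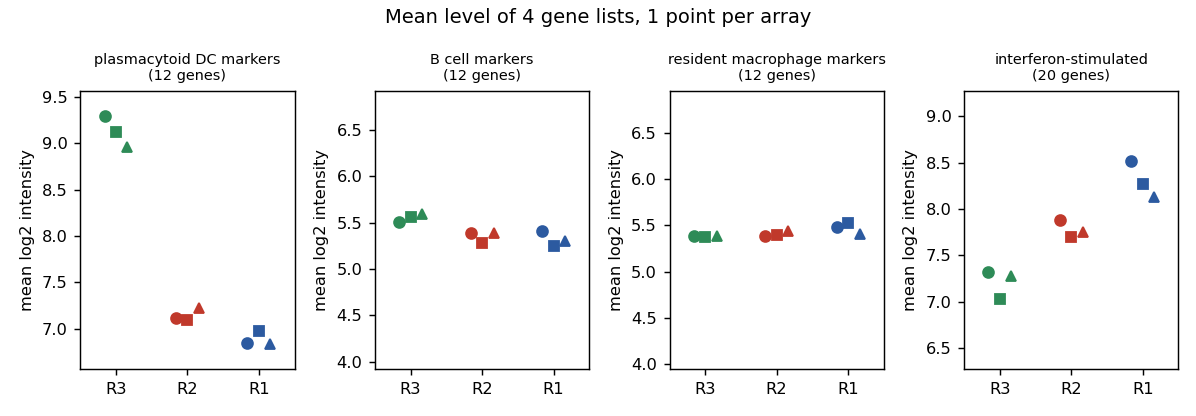
Mean log2 intensity (vertical axis, the same number of log2 units in each panel) of 4 gene lists on each array of R3, R2, and R1, with circles, squares, and triangles for replicates 1, 2, and 3. Plasmacytoid DC markers are highest in R3, interferon-induced genes are lowest in R3 and highest in R1, and the B cell and resident macrophage lists stay between 5.25 and 5.59.

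Neutrophil transcripts, read for *Siglece*, varied within R3. The summed intensity of 10 markers was 16080, 1546, and 6990 in R3, against 12017, 10087, and 12643 in R2 and 8723, 8499, and 11593 in R1. R3 replicate 1 was the highest array of all and R3 replicate 2 the lowest, while *Siglece* read 6.80 and 6.76 in them. Only *Mmp8*, which encodes neutrophil collagenase, was called, and it fell by 4.41 against R2 (adjusted p = 1.7e-05). Without R3 replicate 2, 3 markers were called between R3 and R2 and 4 between R3 and R1. Leaving out R3 replicate 1 or R2 replicate 2, or taking the label date as a block, gave 2 between R3 and R2. Of 9 markers of T and natural killer cells 0 were called between R3 and R2 with limma, against 9.55% of all genes. At an unadjusted p under 0.05, and with the methods' t-test, the count was 0 as well. Of 9 markers of eosinophils, basophils, and mast cells *Mcpt8*, a basophil protease gene, was lower in R3 (log2 -1.57, adjusted p = 0.0113), a call lost without R2 replicate 1, replicate 2, or replicate 3.

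The genes whose levels ran closest to each member over the 9 arrays were named as a description. The arrays form 3 populations, so that the Pearson r covers the differences between populations as well as those within them. For *Siglech* they were *P2ry10* (r = 0.997), *Pdzd4* (0.996), and *Ap1s3* (0.995), and 219 genes had an r above 0.95. For *Cd22* they were *Fgd2* (0.996), *Myo18a* (0.985), and *Fmnl2* (0.984), with 133 genes above 0.95. *Siglece* ran with *Cebpb* (0.997), which encodes a myeloid transcription factor, *Gpr65* (0.996), and *Ethe1* (0.996), and had 343 such genes. The other members had few. *Cd33*, with R2 lowest, ran with *Dock4* (0.978), *Sike1* (0.977), and *Iqsec1* (0.974), and had 16 genes above 0.95. *Siglec1* ran with *Arap3* (0.981), *Slfn4* (0.980), and *Ms4a6b* (0.976), and had 15. *Siglecg* ran with *Smarca4* (0.970), *Msh5* (0.967), and *Lrch3* (0.964), and had 11.

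The calls of the members differed in how far they rested on the setting. *Siglech*, *Siglece*, and *Cd22* were called against both R2 and R1 in all 22 alternatives. The largest adjusted p among these was 0.0217, for *Cd22* against R1 under the methods' unpaired t-test.

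**Figure D5:**
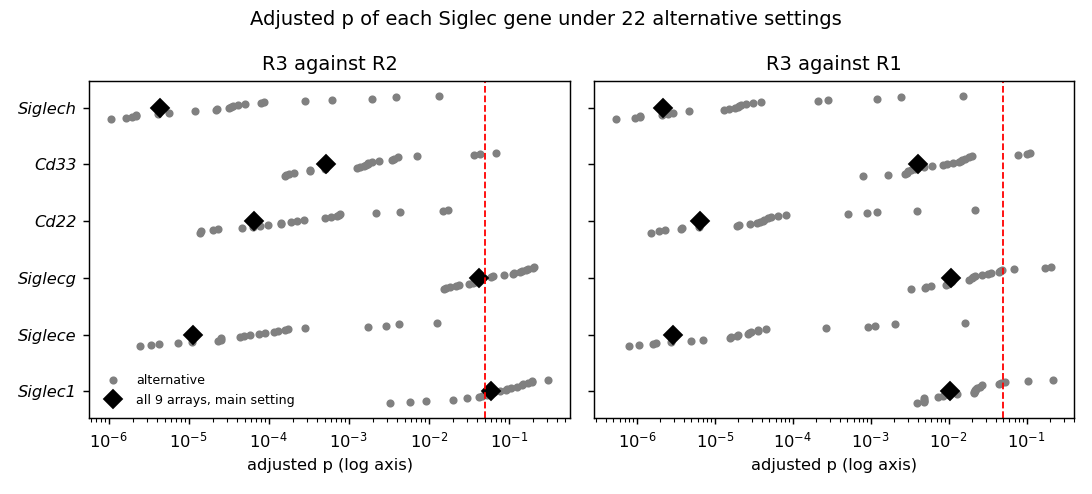
Adjusted p (horizontal log axis) of each member in R3 against R2 and R3 against R1, with a diamond for all 9 arrays in the main setting, small points for the 22 alternatives, and a dashed line at 0.05. All points of *Siglech*, *Siglece*, and *Cd22* lie left of the line, and those of *Cd33*, *Siglecg*, and *Siglec1* fall on both sides.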

How the data were processed

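RNA from R3, R2, and R1 cells was measured on 9 Affymetrix Mouse Gene 1.0 ST arrays, 3 per population. Per the labels and the study's methods, 1 ng of RNA was amplified isothermally (NuGEN Ovation Pico WTA V2) and biotin labeled before hybridization, and the authors used GenePattern. The authors deposited 1 linear intensity per probe set and array. Background correction, summarization, and normalization are not given in the sources used here. Compression of low values cannot be judged. The 3 arrays per population limit the precision.

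Intensities were log2 transformed with no offset. Of 34760 probe sets, 21640 name 1 gene, 1321 several, and 11799 none in the platform annotation. For each of 19937 genes the probe set of highest mean was kept. The 3 populations were fitted in 1 model with limma 3.58.1 (R 4.3.3; lmFit and eBayes, 6 residual degrees of freedom), with Benjamini-Hochberg adjustment over all genes within each comparison. The script was tested on simulated data. Replicate numbers follow the dates in the labels, which pair the arrays. The correlation of deviations was -0.024 to 0.152 for arrays of the same date and -0.150 to 0.081 for others. The 22 alternatives comprise 12 that leave out an array or a date and 10 other settings.

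The members, the 15 gene lists, and the tests were chosen with earlier results of these data known. Genes named are the members, other Siglecs, the 3 genes of highest Pearson r per member, called list genes at least 2-fold apart (at most 6 of largest fold per list, and 3 for marker lists), and the genes that define the sort. Further list genes and chromosomal neighbours were named after their values were seen. They spell out small counts, or were named for the role of their product or the size of their difference. Sequences and gene order are from RefSeq, GRCm38.p6.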

Additional observations from a re-analysis of the deposited data

How the results depend on the processing

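Of the 6 members, 5 were called for R3 against R2, 6 for R3 against R1, and 0 for R2 against R1. Leaving out 1 array or 1 label date gave 4 to 6, 3 to 6, and 0 to 0 members in the same order of comparisons. The methods' unpaired t-test with Benjamini-Hochberg adjustment called 3 members against R2, 3 against R1, and 0 between R2 and R1. Against R2 this test called 0 of 2 adaptor, 1 of 10 tail signalling, 1 of 8 DAP12 signalling, and 2 of 20 sialyltransferase genes. It also called 0 of 10 removal, 4 of 20 interferon-induced, and 0 of 12 B cell marker genes. Array weights called 1 member between R2 and R1. In 22 alternatives the 6 members gave 132 values per comparison, of which 113 kept direction and side of the threshold for R3 against R2 (12 lost and 7 gained a call), 123 for R3 against R1 (9 lost), and 130 for R2 against R1 (1 gained). The remaining value changed sign, *Siglecg* in R2 against R1 without replicate 2 (log2 -0.0065, adjusted p = 1). Over the leave-outs this value ranged from -0.0065 to 0.34. The cause was not tested. *Cd33* lost its call against R2 in the t-test alone (adjusted p = 0.0694).

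With the label date as a replicate block, no member's call changed (adjusted p for R3 against R2 0.0911 for *Siglec1* and 0.0378 for *Siglecg*), and 5 and 6 members were called against R2 and R1. Genes called over all genes ranged from 757 to 2467 for R3 against R2 (1903 with all arrays), from 658 to 2990 for R3 against R1 (2693), and from 0 to 343 for R2 against R1 (78). What limits the low levels was not tested.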
